A study of Mus musculus with 3 samples.

Results

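Early red cell progenitors were examined in the LK library of a mouse bone marrow study, where LK is the lineage-negative, Kit-positive progenitor gate. The cells were chosen by raw UMI counts (unique molecular identifiers, which count captured transcripts): at least 5 UMIs of Car1 and Klf1 together, 0 of Rhd, fewer than 20 of Mpo and fewer than 8 of Pf4, Gp9 and Itga2b together. They numbered 277 of the 3464 LK cells that passed the filter, or 8.0% (95% exact binomial interval 7.11% to 8.95%), and are called Rhd-negative erythroid cells here. A cell passed the filter with 200 or more detected genes and no more than 10% of its UMIs from mitochondrially encoded genes.

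The study pooled marrow of spines, hips, tibiae and femora, depleted it of cells carrying Ter119, Ly-6C, Ly-6G, CD8a, CD5, CD11b or CD45R, and sorted 3 populations by flow cytometry. These were LK, LSK (the gate that also carries Sca-1) and TBM (total bone marrow), each 1 library of the droplet-based Single Cell 3' kit. Strain, genotype, treatment, age and the number of mice are not given in the labels. With 1 library a group no test between groups was possible, so every ratio is a description of cells within 1 library, and all 95% intervals cover counting error only.

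Red blood cells arise from progenitors that share an early path with megakaryocytes and mast cells. The transcription factor GATA2 serves the early progenitors and is replaced by GATA1 as they mature. GATA1, with KLF1, TAL1, LDB1 and LMO2, then switches on the genes of heme, iron, membrane skeleton and globin, while erythropoietin and stem cell factor keep the cells alive and dividing.

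Among LK cells, 391 reached the Car1 and Klf1 minimum. Of these, 106 had at least 1 Rhd UMI, 10 reached the Mpo limit and 3 the megakaryocyte limit. Car1, a carbonic anhydrase of early erythroid cells, was seen in 275 of the 277 kept cells, and Klf1, the erythroid Krüppel-like factor, in 210, so 67 entered on Car1 alone. Their Car1 and Klf1 sum had a median of 13 UMIs and ran between 5 and 104. The 48 cells just inside the limit (5 or 6 UMIs) and the 64 just outside it (3 or 4 UMIs) had Gata2 at 423 and 417 CPM (UMIs of a gene scaled to the summed UMIs of a set of cells), Gata1 at 171 and 148 CPM, Apoe at 3547 and 3296 CPM and Aqp1 at 349 and 243 CPM. The limit therefore passed through cells with similar levels of the first 3 genes and did not mark a gap.

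Further sets of LK cells served for comparison. The other LK cells were all 3187 that passed the filter but not the rule. The Rhd-positive erythroid cells were 101 that met every other limit and had at least 1 Rhd UMI, and the megakaryocyte-gene cells were 122 with at least 8 UMIs of Pf4, Gp9 and Itga2b, fewer than 5 of Car1 and Klf1 and fewer than 20 of Mpo. Within the other LK cells, 1999 reached only the Mpo limit and 940 lay below every limit.

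Depth differed strongly between these sets. Rhd-negative erythroid cells had a median of 6952 UMIs (3260 to 22249) and 2288 genes per cell, against 21983 UMIs and 4236 genes in Rhd-positive cells. The medians were 8972 UMIs in megakaryocyte-gene cells, 7143 in cells below every limit and 18203 in Mpo-high cells. Thinned to 5000 UMIs each, 219 Rhd-negative and 100 Rhd-positive cells remained (58 and 1 were shallower), with medians of 1866 and 1876 genes. At that depth Rhd was seen in only 62.0% of the Rhd-positive cells (51.7% to 71.5%), so a Rhd count of 0 in a shallow cell did not show that the transcript was missing. Fewer transcripts per cell and fewer captured transcripts cannot be told apart in these counts.

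**Figure D1:**
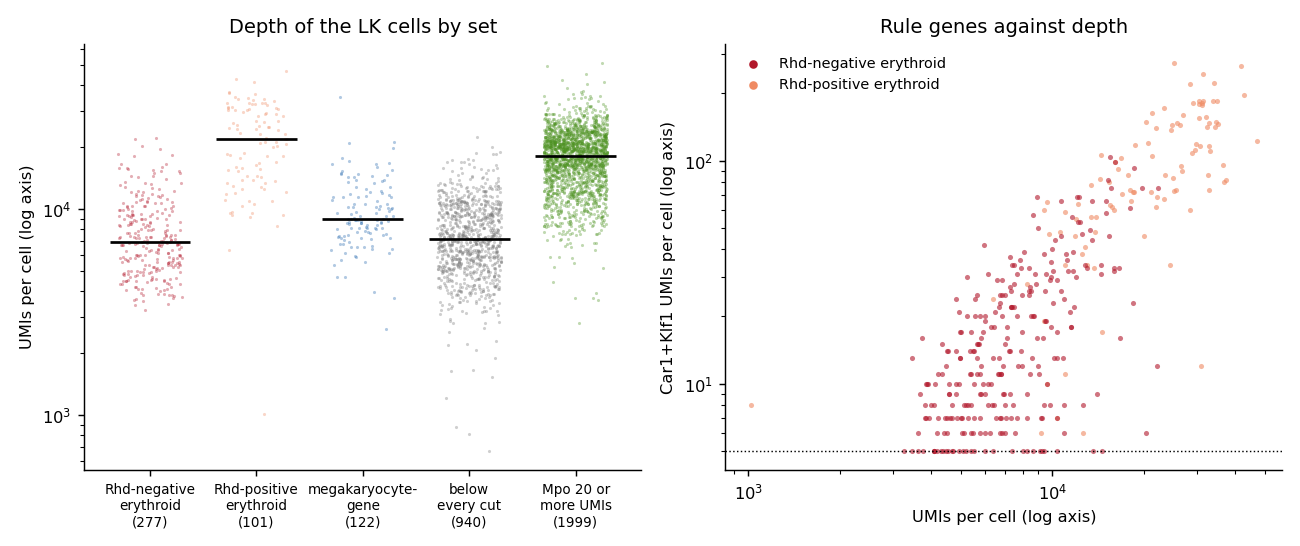
Left, UMIs per cell (log axis) for 5 sets of LK cells, each point a cell and each bar the median, with the number of cells below the name. Right, the Car1 and Klf1 UMIs that the rule used against UMIs per cell (both log axes), with the minimum of 5 dotted; Rhd-negative cells (median 6952 UMIs) lie to the left of most Rhd-positive cells (median 21983 UMIs).

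The markers that the rule had not counted were high in these cells, as the label of early erythroid progenitors has it, though Rhd-negative cells were chosen in the same library and the values are a description. Aqp1, the water channel of red cells (chr6:55336432-55348555, plus strand, build mm10), stood at 444 CPM (416 to 473) in Rhd-negative erythroid cells and was seen in 239 of the 277, with a median of 3 and a maximum of 20 UMIs per cell. It stood at 40.0 CPM in the other LK cells, a log2 ratio of 3.47 (3.36 to 3.58). Mfsd2b, a sphingosine-1-phosphate exporter of red cells and platelets (chr12:4862440-4874359, minus strand), stood at 159 CPM (143 to 177), against 14.7 CPM in the other LK cells, a log2 ratio of 3.44 (3.25 to 3.62). After thinning to 5000 UMIs, Aqp1 was seen in 83.1% and Mfsd2b in 50.7% of Rhd-negative cells, against 1.10% and 0.602% of the 1993 Mpo-high cells, a cell type that should lack both. Without thinning the shares were 86.3% and 67.1%, against 3.50% and 1.70%. Sets nearer to these cells shared the markers. After thinning, Aqp1 and Mfsd2b were seen in 92.0% and 29.0% of Rhd-positive cells and in 34.2% and 47.9% of megakaryocyte-gene cells. In cells below every limit the shares were 12.9% and 16.4%.

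Markers of later erythroid stages were at or near 0 in the same cells. The adult globin genes Hba-a1, Hba-a2, Hbb-bs and Hbb-bt, whose near-identical copies can share reads, had 1.37, 0.457, 5.02 and 2.74 CPM in Rhd-negative cells, against 55.4, 16.8, 14.6 and 20.4 CPM in Rhd-positive cells. The embryonic globins Hbb-bh1, Hbb-bh2, Hbb-y and Hba-x had no UMI, nor had Alas2, the erythroid first enzyme of heme synthesis, Slc4a1, the band 3 anion exchanger, or Sptb, the spectrin beta chain. A count of 0 allows up to 1.37 CPM in these cells (3 counts). Bcam, a blood group adhesion molecule, also had no UMI.

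Myeloid transcripts were low but present in the erythroid and megakaryocyte-gene sets. Elane, the neutrophil elastase gene, stood at 116 CPM in Rhd-negative cells, 112 in Rhd-positive cells and 118 in megakaryocyte-gene cells, against 8336 CPM in Mpo-high cells. The 19 granulocyte-monocyte genes other than Mpo summed to 1273 CPM in Rhd-negative and 1136 CPM in Rhd-positive cells, against 2777 CPM in cells below every limit and 24054 CPM in Mpo-high cells. How much of this is free RNA was not tested. Between libraries, 26 barcodes were shared by LK and TBM, 2 of them from Rhd-negative erythroid cells, and 6 by LK and LSK.

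Because the rule turns on Rhd, a blood group membrane protein of red cells, and because erythroid factors bind GATA and CACCC-box sequences, the 250 bases upstream of the start are shown for Rhd, for the erythropoietin receptor gene Epor, for the marker Aqp1 and for Ces2g, a carboxylesterase gene among those higher in these cells. They come from RefSeq (GRCm38.p6), 5' to 3' on the gene's strand, and of 13 genes looked up 12 matched. Capitals mark AGATAA (called the GATA motif here) or CCNCNCCC (the CACCC motif) on either strand. Rhd is shown for chr4:134864286-134864535 (plus), Epor for chr9:21963577-21963826 (minus), Aqp1 for chr6:55336049-55336298 (plus) and Ces2g for chr8:104961468-104961717 (plus).
Rhd: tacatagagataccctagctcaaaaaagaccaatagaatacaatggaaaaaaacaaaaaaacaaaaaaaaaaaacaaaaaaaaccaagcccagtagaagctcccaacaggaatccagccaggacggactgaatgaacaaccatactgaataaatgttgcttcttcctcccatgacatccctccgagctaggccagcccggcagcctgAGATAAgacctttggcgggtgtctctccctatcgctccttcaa
Epor: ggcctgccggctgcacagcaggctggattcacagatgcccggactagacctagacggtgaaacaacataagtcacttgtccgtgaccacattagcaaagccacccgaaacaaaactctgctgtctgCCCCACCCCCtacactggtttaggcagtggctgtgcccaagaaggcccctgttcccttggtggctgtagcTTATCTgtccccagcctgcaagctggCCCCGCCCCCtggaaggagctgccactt
Aqp1: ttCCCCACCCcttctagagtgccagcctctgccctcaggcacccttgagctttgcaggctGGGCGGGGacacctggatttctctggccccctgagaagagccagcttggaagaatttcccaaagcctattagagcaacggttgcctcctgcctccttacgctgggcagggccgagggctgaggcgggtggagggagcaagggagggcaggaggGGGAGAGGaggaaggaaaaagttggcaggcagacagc
Ces2g: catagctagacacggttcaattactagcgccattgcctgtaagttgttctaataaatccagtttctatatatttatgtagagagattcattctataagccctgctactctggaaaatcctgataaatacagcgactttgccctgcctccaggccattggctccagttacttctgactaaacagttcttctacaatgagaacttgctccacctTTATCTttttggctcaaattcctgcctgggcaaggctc
Of the 12 genes matched, 3 held the GATA motif, and all 3 are printed. Klf1, Gata1, Gata2, Mfsd2b, Tspo2, Csrp3, Trib2 and Optn, like Aqp1, held no AGATAA on either strand. Only these exact letters were searched, so other forms of GATA sequence in these windows were not counted. The motif began 43 bases before the start in Rhd, 54 in Epor and 38 in Ces2g, genes looked up with their levels known. It occurred in 9.99% of 32851 promoters of this length, and the CACCC motif in 45.9%. Rhd and Ces2g held no CACCC match in this window, Aqp1 held 3, and Epor 4 in 2 overlapping pairs; no GATA match overlapped a CACCC match. A match is a stretch of letters and does not show binding.

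Against the other LK cells, the Rhd-negative erythroid cells had higher levels of 12 of 26 erythroid regulators, 12 of 17 red cell membrane and skeleton genes and 6 of 15 erythroid surface genes. Of 11164 genes with at least 50 UMIs over both sets, 881 were at least 2-fold higher (7.89%) and 1251 at least 2-fold lower (11.2%), with a median log2 ratio of 0.05. The rule chose the cells on this contrast, so the counts describe them. Genes of the rule are left out of every count over a list.

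Among 26 erythroid transcription regulators, 12 were at least 2-fold higher and 0 lower, with a median log2 ratio of 0.85. Gata1 (chrX:7959260-7978071, minus strand) stood at 145 CPM (129 to 162) in Rhd-negative cells, against 20.9 CPM in the other LK cells, a log2 ratio of 2.79 (2.61 to 2.98). Gata2 (chr6:88193891-88207032, plus strand) stood at 350 CPM (325 to 375), against 71.9 CPM, a log2 ratio of 2.28 (2.17 to 2.40). Gfi1b, a repressor needed for red cells and platelets, had a log2 ratio of 2.36, Bcl11a, the repressor of fetal globin, 2.03, the GATA1 cofactor Zfpm1 1.86, its partner Ldb1 1.86 and Tal1 1.5. Lmo2, another partner, had a log2 ratio of only -0.22, with 364 CPM, against 374 CPM in Mpo-high cells. Gata1 and Gfi1b were nearly missing in Mpo-high cells, at 3.65 and 4.14 CPM there. Gata2 and Bcl11a were not, being seen in 12.7% and 14.2% of thinned Mpo-high cells, against 77.2% and 58.0% of thinned Rhd-negative cells.

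Both GATA factors were seen together in many single cells. Of the 219 Rhd-negative cells thinned to 5000 UMIs, 86 had UMIs of both Gata1 and Gata2, 83 of Gata2 only, 20 of Gata1 only and 30 of neither. Gata2 was seen in 77.2% (71.0% to 82.6%) and Gata1 in 48.4% (41.6% to 55.2%) of them, against 12.7% and 1.91% of thinned Mpo-high cells. Without thinning, the shares were 83.8% and 63.2%, against 26.9% and 4.10%. Cells counted as having 1 factor or neither may hold the other below detection at this depth.

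Most measured genes of the red cell membrane and skeleton were higher, 12 of 17 by at least 2-fold with 1 lower and a median log2 ratio of 1.93. Of 15 surface genes of early to late erythroid cells, some of them in the same list, 6 were higher and 1 lower (median 0.68). Kel, the Kell blood group protease, stood at 13.2 CPM, against 1.30 CPM in the other LK cells, a log2 ratio of 3.35. The log2 ratio was 2.79 for Ermap, the Scianna blood group protein, 2.43 for Icam4, an adhesion molecule of erythroid islands, and 2.0 for the tetraspanin gene Tspan33. They were seen in part of the cells only: 50 of 277 had a UMI of Ermap and 26 of Kel, and the median per cell was 0 for both.

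Some genes that receive survival signals were higher than in the other LK cells, at low absolute levels. In the erythropoietin and stem cell factor list, 8 of the 21 measured members passed 2-fold upward and 1 downward (median log2 ratio 0.59). Epor (chr9:21958897-21963506, minus strand) stood at 29.7 CPM (22.9 to 37.8), against 6.88 CPM, a log2 ratio of 2.11, and was seen in 59 cells, none with more than 2 UMIs. Jak2, the kinase bound to that receptor, had a log2 ratio of 1.5 and Cish, an inhibitor induced by STAT5, 1.39 on 9 UMIs. Bcl2l1, a survival gene of later erythroid cells, was the lower member, at 2.74 CPM and a log2 ratio of -1.71. Kit, the stem cell factor receptor that the gate selects on, stood at 64.8 CPM, against 33.1 CPM, a log2 ratio of 0.97. Among cells of 8000 to 20000 UMIs in both sets, 3 of 20 members of the list passed 2-fold upward and 2 downward (median 0.30). Over all depths the list summed to 965 CPM in Rhd-negative cells. It summed to 989 CPM in cells below every limit and to 540 CPM in Mpo-high cells.

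Heme and iron genes were raised in part. Of 14 heme synthesis genes 3 passed 2-fold upward and 1 downward, with a median of 0.49: Alad, Urod and the mitochondrial glycine carrier Slc25a38 had log2 ratios of 1.06, 1.09 and 1.11, and Alas1, the housekeeping form of the first enzyme, -3.75 (22.4 CPM, against 301 CPM). Of 21 iron genes 5 were at least 2-fold higher and 0 lower, led by Tfr2, a second transferrin receptor, at 122 CPM and a log2 ratio of 1.86. Tfrc, the main transferrin receptor of maturing red cells, stood at only 7.31 CPM, against 14.3 CPM, a log2 ratio of -0.97. Of 18 redox genes 3 were higher and 1 lower, the higher ones being Gstm5 (2.63) and Gclm (1.81), both of glutathione metabolism, and the stress regulator Nfe2l2 (1.03). Of 13 carbonic anhydrases and carriers 5 were higher and 2 lower, with a median of -0.05.

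Outside these lists, the genes with the largest log2 ratios by the ranking were Trib2, a pseudokinase (4.59, 68.0 against 2.82 CPM), Gm15915 (4.12, 273 against 15.7 CPM), the autophagy receptor Optn (4.05), the erythroid translocator-family gene Tspo2 (3.86), the actin-severing Scin (3.71), the glycerol channel Aqp9 (3.69), the sodium pump subunit Atp1b2 (3.66), the protease gene Prss50 (3.64) and Csrp3, a LIM protein best known from muscle (3.62). Apoe, the lipid carrier apolipoprotein E, was chosen after its values were seen. It stood at 2831 CPM (2761 to 2903) in Rhd-negative cells, against 403 CPM in the other LK cells, and all but 2 of the 277 cells had a UMI, with a median of 20 per cell.

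Granulocyte-monocyte and several glycolysis genes were among those lower. All 19 granulocyte-monocyte genes were at least 2-fold lower, with a median log2 ratio of -5.32. Mpo-high cells, which the rule keeps out, made up 1999 of the 3187 other LK cells. Cebpe, a granulocyte factor, had a log2 ratio of -6.42 and Gfi1, a granulocyte repressor, -6.00. Of 19 glycolysis genes 6 were lower and 2 higher, with a median of -0.80: Ldhb had -5.24, Pgam1 -2.92 and Pkm, the pyruvate kinase of most tissues, -2.88, with 142 CPM, against 1045 CPM. Pklr, the red cell pyruvate kinase, was at 6.85 CPM in 11 cells (1.23).

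Cell cycle and immediate early genes differed as well. Of 27 S phase genes 5 were at least 2-fold lower and 0 higher (median -0.61), and of 28 G2/M genes 0 passed 2-fold in either direction (median 0.07). Of 17 immediate early genes, which cells switch on quickly after a stimulus, 13 were higher and 0 lower (median 1.43), among them Egr1 (443 against 88.7 CPM, 2.32), Ier2 (1.72), Jund (1.68) and Junb (1.68). Among cells of 8000 to 20000 UMIs in both sets, where 6.16% of 10176 genes were at least 2-fold higher, 1 of 27 S phase genes was higher and 0 lower (median -0.17), 9 of 28 G2/M genes higher and 0 lower (median 0.73), and 7 of 17 immediate early genes higher and 0 lower (median 0.91). Over all depths, 4 of 15 linker and replacement histones were higher and 1 lower (median 0.48). Of 14 interferon response genes 4 were higher and 0 lower (median 0.49). The interferon list summed to 1137 CPM in Rhd-negative cells, against 1307 CPM in cells below every limit and 635 CPM in Mpo-high cells. Nucleolus and respiratory chain genes had medians of 0.07 and -0.24, with 0 of 23 and 0 of 22 past 2-fold.

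Genes of neighbouring lineages were retained unevenly. Of 17 stem and multipotent progenitor genes 4 were higher and 6 lower (median -0.08); Cd34 stood at 20.1 CPM, against 271 CPM, and Flt3 had no UMI and was at least 23.1-fold lower against the floor of 3 counts. Of 13 megakaryocyte genes 2 were higher and 3 lower (median -0.18), the higher ones being the thrombin receptor F2r (120 CPM, 2.22) and the platelet glycoprotein Gp5 (55.2 CPM, 2.05). Of 10 mast cell and basophil genes 2 were higher and 5 lower (median -1.12): Gata2, and Il1rl1, the interleukin-33 receptor, at 15.5 CPM in 28 cells (3.49). The mast cell proteases Cma1, Tpsab1, Tpsb2 and Prss34 had no UMI. Among other cell types, 1 of 3 measured eosinophil genes was higher and 2 lower, 0 of 4 lymphoid genes higher and 2 lower, 1 of 7 dendritic cell and macrophage genes higher and 4 lower, and 0 of 6 neutrophil genes higher and 5 lower. The 1 stromal gene measured did not pass 2-fold. Defining genes of these types, Epx, Cd3e, C1qb and Col1a1, had no UMI.

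**Figure D2:**
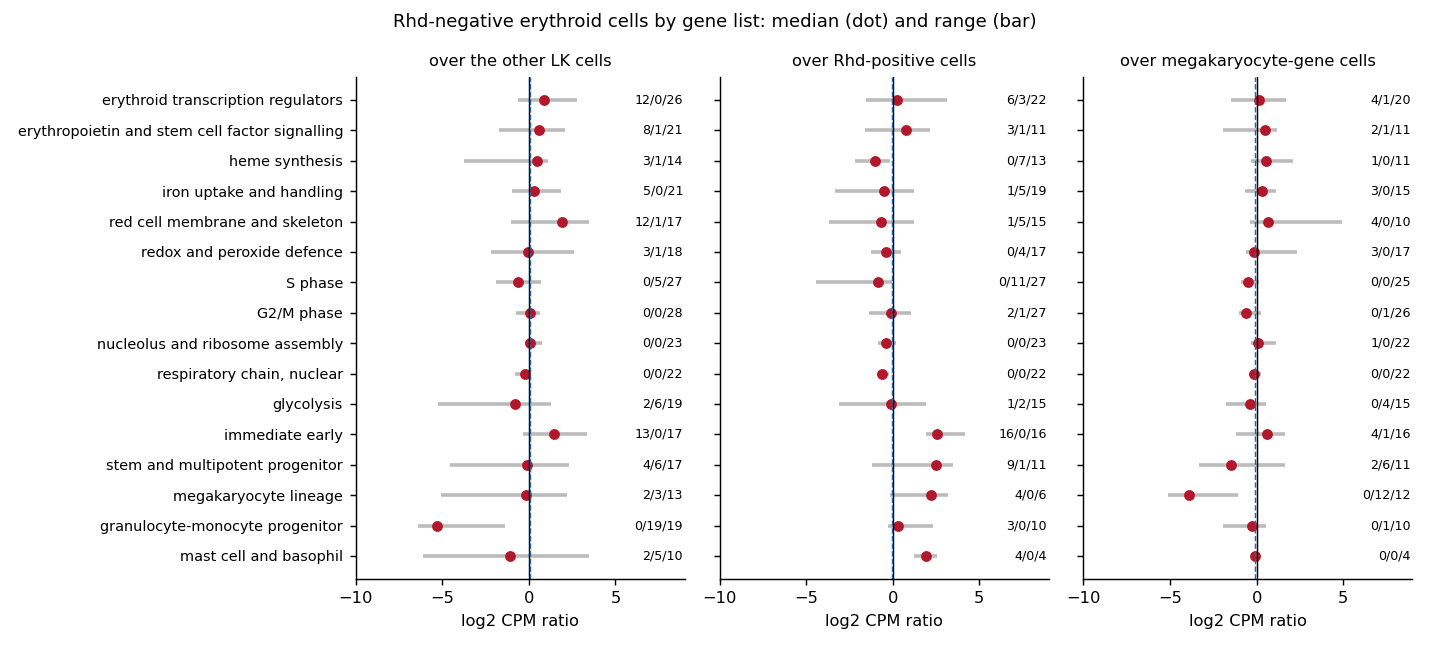
Median log2 CPM ratio (dot) and range (grey bar) of the measured genes of 16 lists, for Rhd-negative erythroid cells over the other LK cells, Rhd-positive cells and megakaryocyte-gene cells. Figures at the right of each panel count genes at least 2-fold higher, at least 2-fold lower and measured; the dashed line is the median of all measured genes, and genes of the rule are left out.

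The 940 LK cells below every limit had a close median depth, of 7143 UMIs. Against them 159 genes were at least 2-fold higher and 835 lower, where all other LK cells gave 881 and 1251. The number of genes measured in this setting is not given here, so these counts carry no share. The 940 cells held 7204479 UMIs in all, against 2190194, so genes could be measured through them alone. Aqp1 at 444 against 50.8 CPM, Tspo2 at 131 against 5.83, Trib2 at 68.0 against 7.63, Gm15915 at 273 against 33.3 and Optn at 151 against 23.5 CPM were still more than 4-fold apart. Gata1 stood at 145 against 50.8 CPM and Gata2 at 350 against 243 CPM. Egr1 at 443 against 303 CPM and Ier2 at 1588 against 964 CPM differed by less than 2-fold, and Sox4, a progenitor factor, was at 410 against 441 CPM.

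Rhd-negative erythroid cells had more transcript of Gata2, Apoe and early progenitor genes than Rhd-positive erythroid cells, and less of heme, iron and carrier genes. Of 6478 genes measured over these sets, 682 were at least 2-fold higher in Rhd-negative cells (10.5%) and 329 at least 2-fold lower (5.08%), with a median log2 ratio of -0.03. Depth moved with this split, so each list is also given for the 101 Rhd-negative and 41 Rhd-positive cells of 8000 to 20000 UMIs, a range chosen after the depths were seen. There, 101 of 4063 genes were higher (2.49%) and 11 lower (0.271%), and median depths were still 10369 and 13405 UMIs.

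Across 3 equal groups of Rhd-negative cells ordered by Car1 and Klf1 per 10000 UMIs, and then across cells with 1, 2 and at least 3 Rhd UMIs, Gata2 stood at 436, 371, 261, 185, 87.7 and 39.2 CPM. Its intervals overlapped between the first pair and barely between the third group and the cells with 1 Rhd UMI (228 to 298, against 147 to 230), and stood apart at the other steps. Gata1 stood at 149, 139, 146, 149, 111 and 162 CPM, and its intervals overlapped at every step. Median depth along the same order was 6726, 5882, 7992, 12907, 19612 and 30288 UMIs. Cells with 1, 2 and at least 3 Rhd UMIs numbered 32, 14 and 55.

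Other genes fell, rose or changed direction over the same groups. Apoe stood at 3444, 2656, 2455, 1595, 1041 and 193 CPM along that order, while Car2, the carbonic anhydrase of mature red cells, stood at 966, 1027, 1231, 1659, 2189 and 4845 CPM. Epor was level within the Rhd-negative cells at 28.6, 35.1 and 26.3 CPM, and stood at 59.4, 72.4 and 102 CPM with 1, 2 and at least 3 Rhd UMIs. Myb, a factor of cycling progenitors, was highest in the middle Rhd-negative group, at 311, 394, 383, 313, 252 and 120 CPM. E2f4, a cell cycle factor needed for red cell maturation, stood at 67.1, 91.6, 131, 171, 172 and 326 CPM. Mfsd2b stood at 150, 156 and 170 CPM within the Rhd-negative groups, against 89.1, 95.3 and 59.1 CPM with Rhd.

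**Figure D3:**
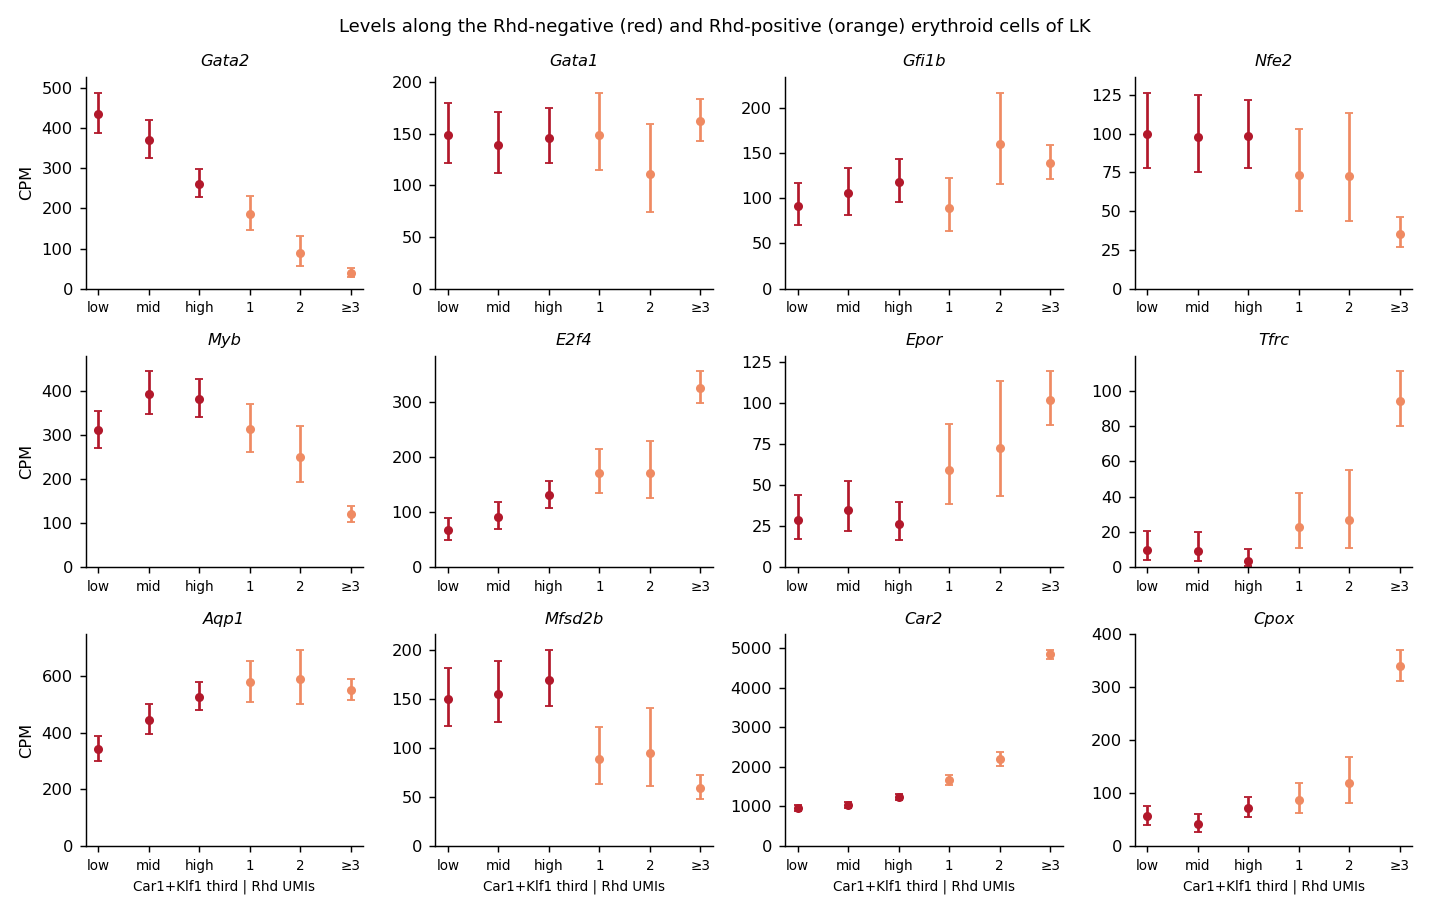
Levels in CPM of 12 genes in Rhd-negative cells (red, 3 equal groups by Car1 and Klf1 per 10000 UMIs) and Rhd-positive cells (orange, by 1, 2 and at least 3 Rhd UMIs), with exact Poisson 95% intervals. Gata2 steps down between 436 and 39.2 CPM, Gata1 stays between 111 and 162 CPM, and Car2, Tfrc and Cpox are highest with at least 3 Rhd UMIs.

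Among the regulators, 6 of 22 were at least 2-fold higher in Rhd-negative than in Rhd-positive cells and 3 lower (median 0.27). Gata2 stood at 350 against 73.1 CPM (log2 ratio 2.26, 2.01 to 2.51), Nfe2 at 98.6 against 47.0 CPM (1.07) and Myb at 363 against 173 CPM (1.07). E2f4 stood at 98.6 against 278 CPM (-1.50) and Nfia, a factor tied to erythroid over granulocyte fate, at 16.9 against 48.7 CPM (-1.53). Gata1 (-0.09, -0.31 to 0.14) did not differ beyond counting error. In the depth range of 8000 to 20000 UMIs, 0 of 18 regulators passed 2-fold, with Gata2 at 277 against 189 CPM (0.55), E2f4 at -0.40 and Myb at 0.13.

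Maturation genes were lower in the Rhd-negative cells. Of 13 heme synthesis genes 7 were at least 2-fold lower and 0 higher (median -1.01), with Cpox at 57.5 against 265 CPM (-2.21) and Fech, which inserts the iron, at 31.0 against 109 CPM (-1.81). Of 19 iron genes 5 were lower and 1 higher (median -0.51), with Tfrc at 7.31 against 72.7 CPM (-3.31) and the iron exporter Slc40a1 at 9.13 against 45.6 CPM (-2.32), while Tfr2 was at 122 against 118 CPM. Of 8 carriers 6 were lower and 0 higher (median -1.40), led by the glutamine carrier Slc38a5 (-2.37) and Car2 (1085 against 3919 CPM, -1.85). Of 15 membrane genes 5 were lower and 1 higher (median -0.65), Ermap at 36.1 against 103 CPM among them, and of 17 redox genes 4 were lower and 0 higher (median -0.39). At matched depth none of the 9 heme, 14 iron, 6 carrier, 9 membrane and 15 redox genes measured passed 2-fold; the medians were -0.45 for heme, -0.11 for iron, -0.47 for carriers, -0.07 for membrane and -0.19 for redox genes.

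Stem, megakaryocyte and immediate early genes were higher in the Rhd-negative cells. Of 11 stem and progenitor genes 9 passed 2-fold upward and 1 downward (median 2.47), such as Meis1 (43.8 against 4.87 CPM), Angpt1 (43.8 against 3.99 CPM) and Sox4 (410 against 68.2 CPM). Of 6 megakaryocyte genes 4 were higher and 0 lower (median 2.22), F2r at 120 against 19.1 CPM and Cd9 at 154 against 33.2 CPM among them. All 4 mast cell and basophil genes measured were higher (median 1.91), Cpa3, the mast cell carboxypeptidase, at 71.7 against 12 CPM. All 16 immediate early genes were higher (median 2.56). At matched depth 1 of 5 stem genes, 0 of 4 megakaryocyte genes, 1 of 3 mast cell genes and 2 of 13 immediate early genes were at least 2-fold higher, with medians of 0.63, 0.25, 0.55 and 0.70.

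A small group of genes kept a gap of over 2-fold at matched depth. Sphk1, the sphingosine kinase, stood at 9.59 against 186 CPM over all depths (-4.28) and at 14.9 against 79.1 CPM in the matched range (-2.41). Cldn13 and Crip2, with -4.59 and -4.91 over all depths, did not reach the minimum of 50 UMIs in the matched range. C1qtnf12 had log2 ratios of -3.17 and -1.08, and Asns, asparagine synthetase, -2.76 and -1.04. In the other direction Ctla2a, a cathepsin inhibitor, stood at 389 against 19.1 CPM over all depths (4.35) and at 276 against 52.2 CPM in the matched range (2.41). Ddah2 kept 2.29, Klf2, a quiescence-linked Krüppel-like factor, 2.15 and Tmem176b 2.13. Apoe, at 2831 against 563 CPM over all depths (2.33), stood at 2392 against 1523 CPM in the matched range (0.65).

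**Figure D4:**
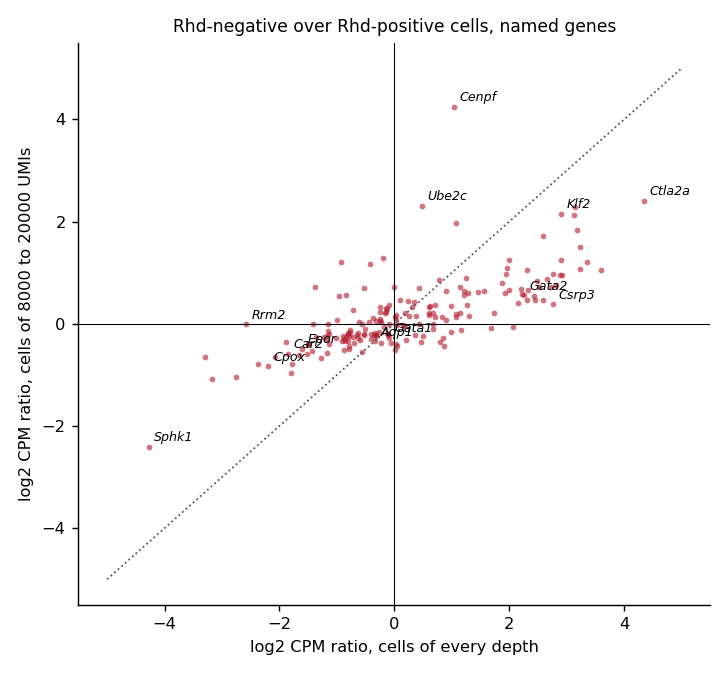
Log2 CPM ratio of Rhd-negative over Rhd-positive erythroid cells for the named genes measured in both settings, with cells of every depth on the x axis and cells of 8000 to 20000 UMIs on the y axis; the dotted line marks equal values. Most genes lie nearer 0 on the y axis, Ctla2a (4.35 and 2.41) and Sphk1 (-4.28 and -2.41) keep large ratios, and Cenpf (1.04 and 4.25) and Ube2c (0.47 and 2.31) lie above the line.

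Cell cycle genes took another course. Over all depths, 11 of 27 S phase genes were at least 2-fold lower in Rhd-negative cells and 0 higher (median -0.83), with Rrm2, a ribonucleotide reductase subunit, at 52.1 against 311 CPM and the cyclin gene Ccne1 at 6.39 against 140 CPM. Of 27 G2/M genes 2 were higher and 1 lower (median -0.12). At matched depth 0 of 23 S phase genes passed 2-fold (median -0.15). Of 23 G2/M genes, 15 were at least 2-fold higher there (65.2%, median 1.16), against 2.49% of all genes. The G2/M list summed to 4911 against 2694 CPM in that range, but to 3475 against 4131 CPM over all cells. That range takes the deeper Rhd-negative and the shallower Rhd-positive cells, whose G2/M levels differ from those of their whole sets. Ube2c stood at 241 against 48.6 CPM, Nusap1 at 134 against 34.2 CPM and Cenpf at 68.4 against 3.60 CPM in that range. Ube2c came from 47 of the 277 cells, with up to 28 UMIs in a cell, so a minority of cells carried it.

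Levels of several lists moved with depth inside the Rhd-negative set itself. In its 58 cells under 5000 UMIs, 158 cells of 5000 to under 10000 and 61 cells of at least 10000, the immediate early genes summed to 20178, 13148 and 6155 CPM. The S phase list summed to 735, 2678 and 3274 CPM and the G2/M list to 1218, 3188 and 4559 CPM over the same bins. Cells below every limit showed the same order, with 16493, 9456 and 7226 CPM of immediate early genes. Malat1, a nuclear RNA chosen after its values were seen, stood at 18053, 14055 and 8238 CPM in the 3 bins of Rhd-negative cells, whereas the granulocyte-monocyte list was level, at 1294, 1267 and 1276 CPM. Mitochondrially encoded genes took 2.20%, 2.14% and 2.02% of UMIs. The part of depth in these differences was not tested beyond the matched range.

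**Figure D5:**
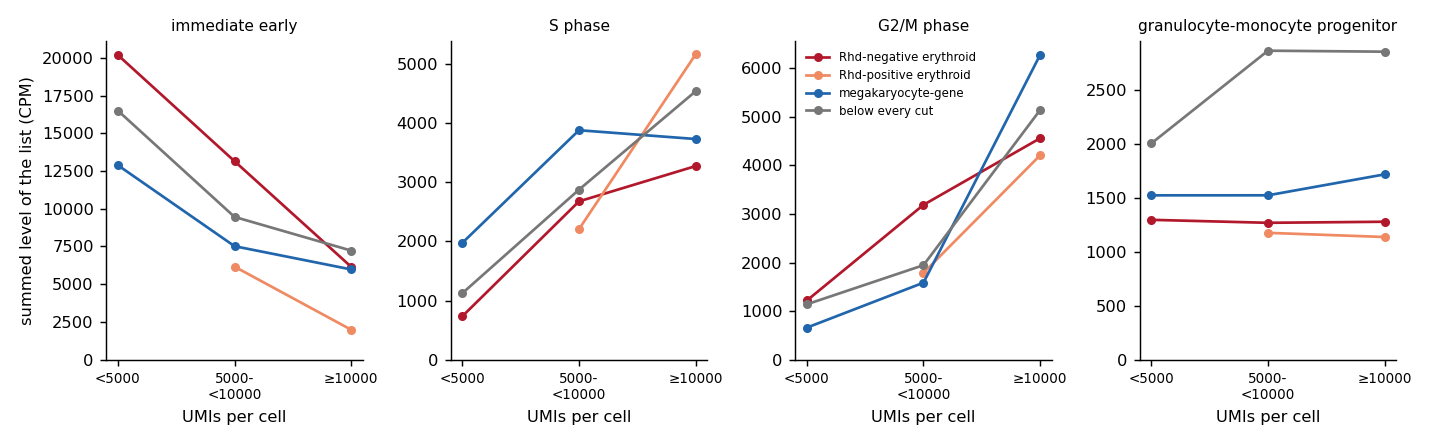
Summed level in CPM of 4 gene lists against depth bin (UMIs per cell) in Rhd-negative, Rhd-positive, megakaryocyte-gene and below-every-limit LK cells; sets with fewer than 5 cells in a bin are not drawn. Immediate early genes are highest in the shallowest cells of each set (20178 CPM in Rhd-negative cells), S phase and G2/M genes are lowest there, and the granulocyte-monocyte list is level in Rhd-negative cells.

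Against the megakaryocyte-gene cells, the Rhd-negative erythroid cells had similar levels of Gata2, Gfi1b and Tal1, more Gata1, and less of the megakaryocyte genes. Of 6045 genes measured, 248 were at least 2-fold higher (4.1%) and 256 at least 2-fold lower (4.23%), with a median log2 ratio of -0.07. Gata2 stood at 350 against 334 CPM (0.07, -0.11 to 0.24), Gfi1b at 105 against 92.3 CPM (0.19, -0.14 to 0.53) and Tal1 at 63.0 against 78.5 CPM (-0.32, -0.70 to 0.07). These intervals include 0 and stay within 2-fold. Gata1 stood at 145 against 94.7 CPM (0.61, 0.30 to 0.93) and was seen in 48.4% against 35.9% of cells thinned to 5000 UMIs (63.2% against 59.0% without thinning; 1.91% of thinned Mpo-high cells). Among cells of 8000 to 20000 UMIs the log2 ratio was 0.54 for Gata1 (0.14 to 0.95) and -0.24 for Gata2 (-0.47 to -0.0041). Of 20 regulators 4 were higher and 1 lower (median 0.17): Myb at 363 against 114 CPM (1.67), Ikzf1 (1.47), Bcl11a (1.45) and Ldb1 (1.39) were higher, and Mycn was lower (-1.46).

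The red cell lists differed in part: 4 of 10 membrane genes were higher and 0 lower (median 0.64), 5 of 13 surface genes higher and 3 lower (median 0.17), 3 of 15 iron genes higher and 0 lower (median 0.30), 1 of 11 heme genes higher and 0 lower (median 0.54), and 1 of 8 carriers higher and 1 lower (median -0.04). Single genes by the ranking stood further apart. Tspo2 stood at 131 CPM, against 0, at least 53.8-fold higher by the floor of 3 counts, and Atp1b2 and Prss50 were at least 31.2-fold and 18.6-fold higher on the same bound. Gm15915 (5.23), Ces2g (4.31), Lgals1, a galectin (3.62), Ifitm1 (3.14), Csrp3 (2.95), Optn (2.84) and the biliverdin reductase gene Blvrb (2.57) were also higher. Mfsd2b stood at 159 against 117 CPM (0.45), so this marker was shared by both sets. Epor, at 29.7 against 26.7 CPM (0.15, -0.47 to 0.80), could not be told apart.

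All 12 measured megakaryocyte genes outside the rule were at least 2-fold lower in the erythroid cells (median -3.88), which the rule's own limit favours. Over all genes the lowest log2 ratios by the ranking were those of the secretory GTPase gene Rab27b (-4.95), Cavin2 (-4.91), the platelet kinase substrate Plek (-4.79) and the thromboxane synthase gene Tbxas1 (-4.59). Of 11 stem genes 6 were lower and 2 higher (median -1.45), Meis1 at 43.8 against 191 CPM among the lower. Of 16 immediate early genes 4 were higher and 1 lower (median 0.61), but at 8000 to 20000 UMIs 1 of 14 was higher and 2 lower (median 0.15). Also 0 of 25 S phase and 0 of 26 G2/M genes were higher (1 G2/M gene was lower), with medians of -0.47 and -0.59.

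The same rule found few cells in the other gates. LSK held 6 such cells of 1070 (0.561%) and no Rhd-positive one, and TBM held 4 of 4290 (0.0932%), with 273 Rhd-positive ones. In the 6 LSK cells Gata2 stood at 238 CPM (154 to 351), Gata1 at 162 (94.2 to 259), Aqp1 at 390 (280 to 529) and Apoe at 1759 (1515 to 2032), and in the 4 TBM cells Gata2 at 368 (206 to 606), Aqp1 at 490 (299 to 757) and Apoe at 1177 (868 to 1560). The TBM Rhd-positive cells had 3.61 CPM of Gata2 and 53.4 CPM of Apoe, and globins dominated them, with 148338 CPM of Hbb-bs. Median depth was 8547 UMIs in the 4 TBM cells and 8097 UMIs in the Rhd-positive TBM cells, which is close, but the TBM values rest on 4 cells.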

How the data were processed

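Values start from raw UMI counts per gene and barcode, deposited by the authors without normalization. Per the submitters' processing notes, Cell Ranger 4.0.0 and build mm10 were used; the annotation release is not given in the sources used here. No column of per-sample values was left over.

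UMIs were summed over each set of cells and scaled to CPM with Python 3.11.15, numpy 2.4.6, scipy 1.17.1 and pandas 2.3.3. Log2 CPM ratios have exact conditional binomial intervals, CPM exact Poisson intervals and shares exact Clopper-Pearson intervals (95%, counting error only). A gene needed 50 UMIs over both sets, so a gene could pass through the deeper set alone. Sets with 0 counts entered at a floor of 3. LK held 50037534 UMIs (median 13699 per cell, 3560 barcodes, 3441 cells stated by the labels). Shares used cells thinned to 5000 UMIs. Scrublet (scanpy 1.11.5) called 3 of 3464 LK cells doublets, 0 of them Rhd-negative erythroid, a rate that leaves doublets untreated. The ratio code was tested on simulated data.

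Named genes were the 12 largest log2 ratios per direction and comparison with at least 200 UMIs (without rule, ribosomal protein, mitochondrially encoded, receptor segment and sex-linked genes), up to 5 members per list, the markers and the regulators. Members and lists were chosen with earlier results of these data known. Some genes are not reported here. Gene positions come from GENCODE M21, matched for 32158 of 32285 identifiers.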

Additional observations from a re-analysis of the deposited data

Results flagged for a closer look

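These genes moved one way in TBM and the other way in LK when Rhd-negative erythroid cells were set against Rhd-positive ones. Of 155 named genes at least 2-fold apart in LK, 57 had at least 3 UMIs in both TBM sets, and 49 of those kept their direction. The difference between the libraries was not tested, and the TBM values rest on 4 cells. Mthfd1, a folate enzyme, had a log2 ratio of 3.03 in TBM on 12 UMIs, against -1.37 in LK. Tmsb4x, an actin-binding peptide gene, had -1.39 in TBM on 15 UMIs, against 2.30 in LK. Lyz2, the lysozyme gene of myeloid cells, had -1.19 in TBM on 13 UMIs, against 1.47 in LK.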

How the results depend on the processing

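No paired analysis was possible because each group is 1 library and no test was run. Of results past 2-fold, 4514 of 4538 gene values and 298 of 301 list medians kept their sign over the alternatives. Of these values, 4110 and 255 stayed past 2-fold. A gene or list without enough UMIs in a setting was not counted there, and some settings changed few or no cells. Causes were not tested. Settings with 8000 to 20000 UMIs, 1 Rhd UMI or cells below every limit were added after seeing the data.

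The rule found 176 cells with a Car1 and Klf1 minimum of 10 and 104 with at least 8000 UMIs. The gene counts that follow come from settings that measured different numbers of genes, so they do not compare shares. Against Rhd-positive cells, 10.5% were higher and 5.08% lower in the main setting, and 2.49% and 0.271% at 8000 to 20000 UMIs. Against megakaryocyte-gene cells the shares were 4.1% and 4.23%, and 2.80% and 4.52%. Against other LK cells, genes higher numbered 2221 at a minimum of 10 UMIs a gene, 515 at 200 and 159 against cells below every limit. Against Rhd-positive cells, genes higher and lower numbered 361 and 194 with at least 8000 UMIs a cell, 431 and 135 with cells thinned before the rule, 1614 and 602 at a minimum of 10 UMIs a gene, 212 and 149 at 200, 101 and 11 at 8000 to 20000 UMIs, and 340 and 42 against cells with 1 Rhd UMI; 168 were lower with Mpo below 5. Against megakaryocyte-gene cells, 144 were higher with at least 8000 UMIs a cell and 132 at 8000 to 20000, and genes higher and lower numbered 677 and 835 at a minimum of 10 UMIs a gene and 79 and 83 at 200.

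Reversed log2 ratios against other LK cells were, for the eosinophil median, 1.25 at 200 UMIs a gene, 0.58 at 8000 to 20000 UMIs and 0.35 against cells below every limit. Thinned before the rule, Hba-a1 had 1.51, Hba-a2 1.36 and Ccne1 0.88. Against cells below every limit, Ube2l6 had -0.53, Ccne1 0.033, Mycn -0.56, Sox4 -0.10, Cst7 0.20, Nr4a1 -0.85, Plac8 0.056 and Sox6 -0.87. Prg3 had 0.32 at 8000 to 20000 UMIs and Cd74 0.0094 with at least 8000. Against Rhd-positive cells at 8000 to 20000 UMIs, Optn had -0.12, Slc25a38 0.080, Ccna2 0.72, Spi1 -0.072, Lgals1 -0.080 and Rrm1 0.0023. Against cells with 1 Rhd UMI, Slc25a38 had 0.28, Steap3 0.035, Txnrd2 0.38 and Ccna2 0.13. Lmna had 0.046 against megakaryocyte-gene cells, thinned before the rule.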
